A study of Mus musculus with 12 samples.

Results

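Entry into mitosis, attachment of chromosomes to the spindle and separation of the daughter cells are carried out by genes that proliferating cells switch on together late in the cell cycle. The 48 such genes described here were taken by symbol from a list of mitosis and chromosome segregation genes by role. Each of the 48 had exactly 1 row among the 54532 genes of the count table, and all 48 passed the filter on low counts that left 14894 genes for testing. They fell into 8 roles, namely chromosome structure, the cyclin and CDK1 engine, the spindle checkpoint, mitotic kinases with the chromosomal passenger complex, kinetochores and centromeres, spindle motors and spindle proteins, cytokinesis, and anaphase promotion.

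In dividing cells CDK1 bound to cyclin B drives entry into mitosis, condensin compacts the chromosomes, and kinetochores hold the spindle until the checkpoint is satisfied. The anaphase-promoting complex, switched on by CDC20, then triggers the destruction of securin and cyclin B, separase cuts cohesin, and the central spindle directs cytokinesis. Granulocyte and monocyte progenitors divide rapidly in bone marrow, and mature neutrophils do not, so that transcripts of these genes are commonly read as a sign of dividing cells.

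The 12 RNA-seq libraries came from marrow of wild-type C57BL/6 mice, whose cells were cultured in RPMI medium with GM-CSF and IL-6, conditions used to generate myeloid-derived suppressor cells, and harvested on day 5. Vehicle cultures (0.1 DMSO as labelled, 4 libraries) were compared with cultures given 10 µM IPA (4 libraries) or 50 µM IPA (4 libraries). IPA, indole-3-propionic acid, is a tryptophan metabolite made by gut bacteria, and per the labels it was given again when the medium was changed on day 3. The authors' methods differ and give a change of medium every other day. No source used here says whether the 4 libraries of a group came from separate mice, so p-values measure the spread between these libraries, which may be technical.

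Total counts per library lay between 20451312 and 28038612, and no library was a copy of another. All 10 markers of myeloid identity, among them Itgam, Csf1r and Lyz2, were detected and passed the filter. Levels are given as CPM (counts scaled to library size, TMM-normalised over the 12 libraries), in the order of replicates 1 to 4 of each group, and fold changes are on the log2 scale with their standard error (SE). Tests were edgeR's quasi-likelihood test with Benjamini-Hochberg adjustment over the 14894 genes, at a threshold of 0.05. The 2 comparisons with vehicle share its 4 libraries, and the 2 comparisons that include 50 µM share those 4 libraries. In bulk RNA, fewer dividing cells and less of these transcripts per cell cannot be told apart.

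Many late cell cycle genes carry a cell cycle homology region near the start of transcription, with the letters TTTGAA or TTCGAA, often with CCAAT boxes nearby. RefSeq windows of 300 bases around the start (250 before and 50 after, GRCm38.p6) were available for 40 of the 48 genes. On either strand, TTTGAA or TTCGAA was present in 31 of the 40 windows (77.5%), against 21.7% of the windows of 27025 genes and 17.2% of those of 10317 tested genes. CCAAT was present on either strand in 30 of the 40 (75.0%), against 41.1% and 42.9%, and both were present in 67.5%, against 8.61% and 7.21%. Matches of the motifs were counted separately and may share bases. A match of letters is a description and not evidence of binding. No window was at hand for Kif20a, Smc4, Foxm1, Ccna2, Cdc25c, Aurkb, Tpx2 and Incenp. Of the 12 genes with a window that were lower at 50 µM by the test, 10 held TTTGAA or TTCGAA, and so did 21 of the 27 with a window that did not pass.

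The 150 bases before the RefSeq start are printed for 5 genes of the results below that hold the letters, with TTTGAA and CCAAT (or their reverse complements) in capitals. The window of Pttg1, the only gene of the list that was higher by the test, holds neither, and the RefSeq start it is taken from lies 270 bases inside the gene as annotated by GENCODE M21. Each run is given 5′ to 3′ on the strand of its gene.
Cdc20: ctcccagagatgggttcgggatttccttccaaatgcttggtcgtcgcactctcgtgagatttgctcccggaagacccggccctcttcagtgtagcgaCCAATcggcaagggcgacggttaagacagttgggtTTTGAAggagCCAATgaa
Ncapg: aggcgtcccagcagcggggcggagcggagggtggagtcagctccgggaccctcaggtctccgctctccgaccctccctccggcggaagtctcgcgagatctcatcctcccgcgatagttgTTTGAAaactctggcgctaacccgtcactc
Prc1: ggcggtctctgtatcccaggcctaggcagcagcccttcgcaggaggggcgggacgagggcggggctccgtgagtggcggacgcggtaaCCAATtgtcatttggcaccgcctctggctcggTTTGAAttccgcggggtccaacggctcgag
Cdk1: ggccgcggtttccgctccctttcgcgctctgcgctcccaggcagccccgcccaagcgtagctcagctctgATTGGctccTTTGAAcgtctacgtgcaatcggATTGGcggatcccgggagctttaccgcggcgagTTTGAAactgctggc
Mki67: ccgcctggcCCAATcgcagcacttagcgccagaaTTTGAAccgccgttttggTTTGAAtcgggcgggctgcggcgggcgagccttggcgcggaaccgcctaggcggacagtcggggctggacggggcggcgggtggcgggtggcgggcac
Cdc20 lies at chr4:118437344-118437493 for the bases shown (minus strand), Ncapg at chr5:45669775-45669924 (plus strand), Prc1 at chr7:80294326-80294475 (plus strand), Cdk1 at chr10:69352913-69353062 (minus strand), and Mki67 at chr7:135716380-135716529 (minus strand). By GENCODE M21 the stretch of Mki67 lies fully upstream of the gene, and the others lie upstream except for their last 9 (Cdc20), 6 (Ncapg), 26 (Prc1) and 26 (Cdk1) bases, which fall in the first exon. For 32 of the 40 genes with a window a RefSeq start lay within 50 bases of the start of the GENCODE gene. In Cdc20 the TTTGAA began 18 bases before the start, with CCAAT at 53 and 8 bases before it. In Mki67 both copies of TTTGAA lay further out, at 116 and 98 bases before the start.

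At 50 µM IPA the mitosis genes lay a little below vehicle as a group, and 16 of the 48 passed the test, 15 lower and 1 higher. The authors reported slightly reduced cell viability at this dose, and not at the lower one, in cultures of this kind. Its part in the levels of these genes was not tested. Cdc20, Kif20a and Plk1, which encode the activator of the anaphase-promoting complex, a cytokinesis motor and the polo-like kinase, fell the most, by 26.8%, 26.3% and 26.3%. Pttg1, which encodes securin, rose. Of all genes tested, 6.5% were lower and 7.0% higher by the same test, against 31.2% of the mitosis genes lower. The median log2 fold change of the 48 genes was -0.22, beside 0.01 for all genes, and 45 of the 48 were fitted below 0, against 48.2% of all genes. For 21 of the 48 every 50 µM library lay below every vehicle library, against 10.5% of all genes.

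At 10 µM IPA none of the 48 passed the test, by edgeR, DESeq2 or limma-voom, and 4 had an unadjusted p under 0.05. Of all genes, 0.0806% were lower and 0.329% higher by the test at this dose. The fitted log2 fold changes lay between -0.24 and 0.12 with a median of -0.12, beside -0.01 for all genes, and 46 of the 48 were below 0, against 51.8% of all genes. For Ncapg, Cdca8, Kif2c, Nusap1 and Cdc20 all 10 µM libraries lay below all vehicle libraries, as they did for 2.56% of all genes. Between the doses, 7 of the 48 were lower at 50 µM than at 10 µM and none was higher, against 7.85% and 7.52% of all genes. The median difference between the doses was -0.09, beside 0.01 for all genes. Of the 48, 41 were fitted below 0 (48.6% of all genes) and 14 had no overlap in the lower direction (10.9% of all genes).

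**Figure D1:**
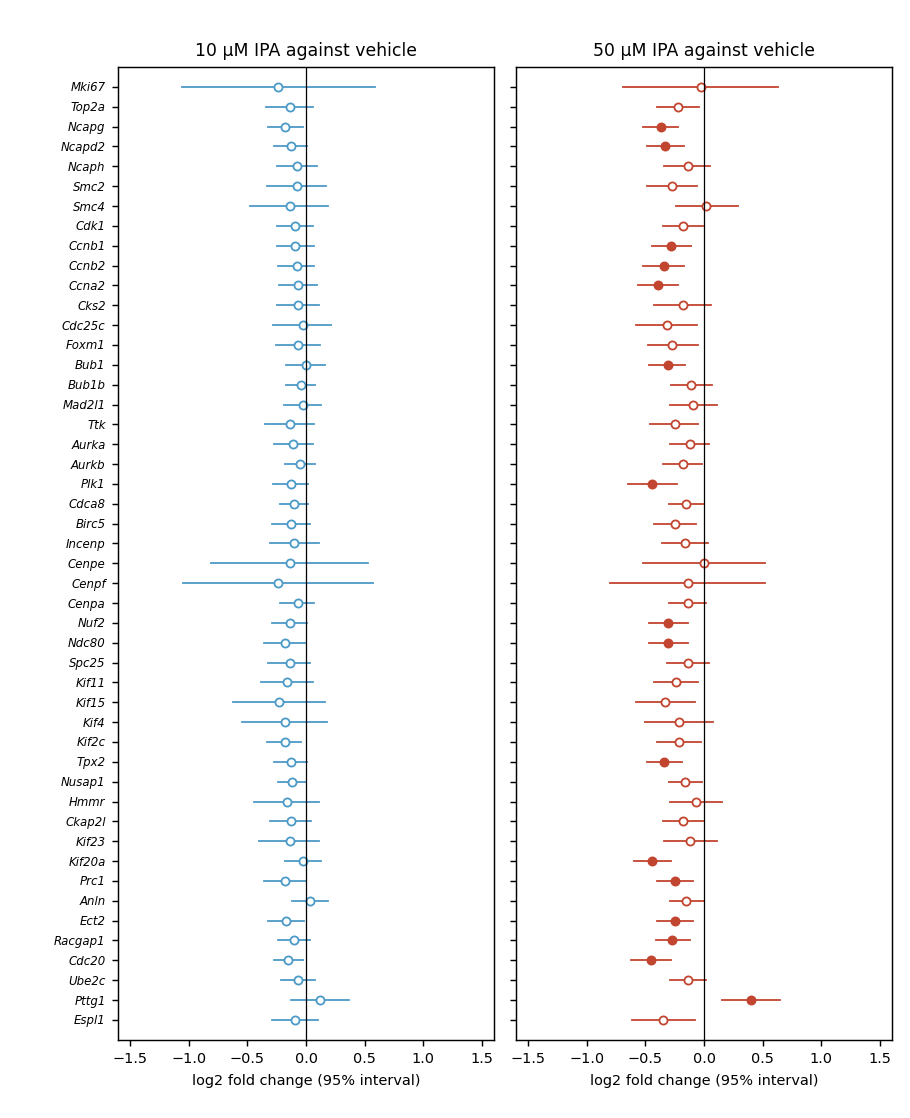
Log2 fold change of each of the 48 mitosis genes (point) with its 95% interval (line), at 10 µM (left) and 50 µM IPA (right) against vehicle, n = 4 libraries per group. Filled points passed edgeR's test at an adjusted p of 0.05: none at 10 µM and 16 at 50 µM, of which Pttg1 alone lies above 0. The widest intervals belong to Mki67, Cenpe and Cenpf.

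Library by library, the median log2 deviation of the 48 genes from their vehicle means was 0.04, 0.05, -0.01 and -0.08 in the vehicle libraries. It was -0.16, -0.15, -0.06 and -0.06 at 10 µM and -0.20, -0.25, -0.29 and -0.22 at 50 µM. All 50 µM libraries thus lay below all other libraries, whereas 2 of the 10 µM libraries lay within the vehicle range. The summed level of the 48 genes overlapped between groups, at 4946 to 6389 CPM with vehicle, 4809 to 5740 CPM at 10 µM and 4723 to 5154 CPM at 50 µM. Top2a and Mki67 had the highest CPM of the list, and per exon length they were the top and the third gene, at 72.5 and 56.8 RPKM with vehicle, while Cdc25c was lowest at 2.71 RPKM.

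**Figure D2:**
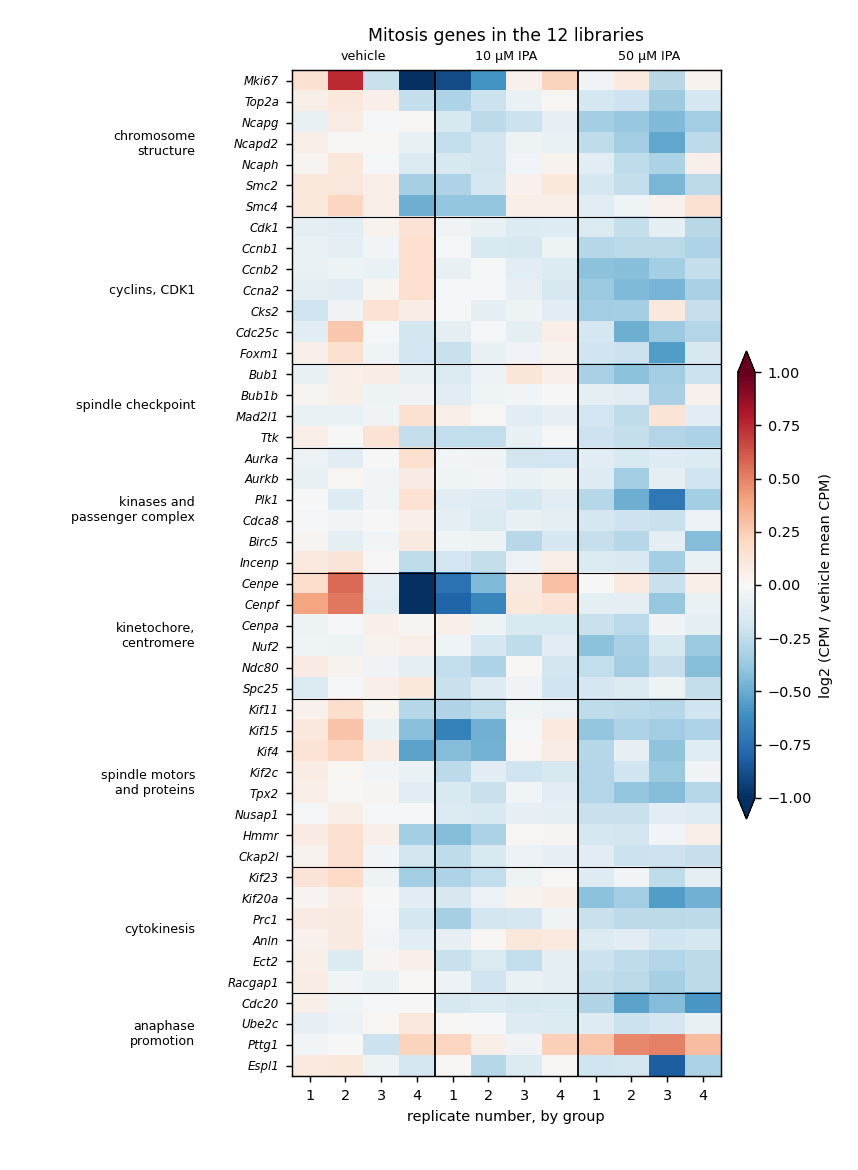
Colour shows the log2 ratio of each gene's CPM to its vehicle mean, for the 48 mitosis genes (rows, by role) in the 12 libraries (columns, by group and replicate number), with the scale ending at -1 and 1. The 50 µM columns are mostly blue with Pttg1 red in all of them, and Mki67, Cenpe and Cenpf run from red in vehicle replicate 2 to dark blue in vehicle replicate 4.

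In the chromosome structure role, the condensin genes Ncapg and Ncapd2 fell at 50 µM, and the other 5 genes did not pass the test. Ncapg, a subunit of condensin I, was at 59.9, 66.7, 62.4 and 64.0 CPM with vehicle, 56.5, 52.6, 54.6 and 59.9 CPM at 10 µM and 50.1, 48.7, 46.7 and 49.7 CPM at 50 µM. All 50 µM libraries were below all of the others, and the 10 µM libraries were below those of vehicle. The fall at 50 µM was by 0.37 on the log2 scale (SE 0.07, adjusted p = 0.00395), and the 10 µM value was -0.18 (SE 0.07, adjusted p = 0.427). Its exons share 944 bases with those of Lcorl on the opposite strand, which had 4550 counts over the 12 libraries. Ncapd2, another condensin I subunit, was at 227, 220, 221 and 208 CPM with vehicle, 185, 193, 212 and 210 CPM at 10 µM and 184, 172, 153 and 182 CPM at 50 µM. Its 50 µM libraries were again below all others (log2 fold change -0.33 against vehicle, SE 0.07, adjusted p = 0.0101), and their difference from 10 µM was -0.21 (adjusted p = 0.0659). Top2a, the topoisomerase that untangles sister chromatids, was at 682, 702, 676 and 555 CPM with vehicle, 527, 564, 624 and 659 CPM at 10 µM and 577, 566, 512 and 580 CPM at 50 µM. Vehicle replicate 4 was low among the vehicle libraries and overlapped with 50 µM (log2 fold change -0.22, SE 0.08, adjusted p = 0.0983), and without it Top2a passed with an adjusted p of 0.00581. Smc2 stood at -0.27 (adjusted p = 0.0907) and passed without vehicle replicate 4 (adjusted p = 0.00207). Ncaph stood at -0.14. Smc4, the partner of SMC2 in condensin, was at 287, 309, 279 and 189 CPM with vehicle, 203, 204, 277 and 279 CPM at 10 µM and 247, 259, 274 and 297 CPM at 50 µM. Its groups overlapped and its log2 fold change was 0.02 (95% interval -0.24 to 0.29).

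Mki67 encodes the Ki-67 protein of the chromosome surface that is widely used to stain proliferating cells. It was at 635, 960, 489 and 201 CPM with vehicle, 307, 378, 589 and 667 CPM at 10 µM and 557, 610, 471 and 585 CPM at 50 µM. The vehicle libraries alone spanned the values of both treated groups, and replicate 4 held the least. The log2 fold change was -0.24 at 10 µM (SE 0.38) and -0.03 at 50 µM (SE 0.31, 95% interval -0.69 to 0.63, adjusted p = 0.968), an interval that covers falls and rises alike. At 50 µM its direction turned to 0.33 without vehicle replicate 2 and went to -0.31 without vehicle replicate 4.

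Among the cyclin and CDK1 engine genes, 3 cyclins fell at 50 µM and Cdk1, Cks2, Cdc25c and Foxm1 did not pass. Ccna2, which encodes cyclin A2 of S phase and early mitosis, was at 168, 166, 183 and 202 CPM with vehicle, 178, 177, 170 and 161 CPM at 10 µM and 139, 132, 130 and 144 CPM at 50 µM. The 50 µM libraries lay below all others and the 10 µM libraries lay within or close to the vehicle range. Ccna2 fell by 0.39 against vehicle (SE 0.08, adjusted p = 0.00568) and by 0.33 against 10 µM (SE 0.06, adjusted p = 0.00193). Its exons share 510 bases with those of Exosc9 on the opposite strand, which had 8356 counts, and the strand setting of the counting is not given in the sources used here. Ccnb2, encoding cyclin B2, was at 84.7, 85.5, 84.7 and 99.3 CPM with vehicle, 84.1, 87.6, 81.9 and 80.4 CPM at 10 µM and 66.5, 65.9, 70.1 and 75.0 CPM at 50 µM. Here too the 50 µM libraries did not overlap with the others, and vehicle replicate 4 was the highest library. The log2 fold change was -0.34 against vehicle (SE 0.08, adjusted p = 0.0123) and -0.26 against 10 µM (adjusted p = 0.0142, or 0.0561 without 10 µM replicate 2 and 0.0565 without 50 µM replicate 2).

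Ccnb1 encodes cyclin B1, the main partner of CDK1 in mitosis. Its levels were 119, 116, 122 and 139 CPM with vehicle, 123, 112, 111 and 120 CPM at 10 µM and 102, 103, 103 and 100 CPM at 50 µM. The 50 µM libraries were nearly equal to one another and below all others. The fall was by 0.28 against vehicle (SE 0.07, adjusted p = 0.0265), and the call was lost without vehicle replicate 3 (0.0685), 50 µM replicate 2 (0.0584) or 50 µM replicate 4 (0.0728). Cdk1, the kinase itself, was at 122, 121, 134 and 144 CPM with vehicle, 127, 124, 118 and 119 CPM at 10 µM and 118, 110, 123 and 108 CPM at 50 µM. Its 50 µM range reached into that of vehicle (log2 fold change -0.18, SE 0.08, 95% interval -0.35 to -0.01, adjusted p = 0.163). Cks2, the shortest gene of the list and a small CDK-binding subunit, was at 32.4, 36.2, 41.1 and 39.2 CPM with vehicle, 36.8, 34.9, 36.0 and 34.4 CPM at 10 µM and 29.3, 29.5, 40.0 and 31.8 CPM at 50 µM. With 50 µM replicate 3 among the highest libraries, its log2 fold change of -0.18 had an adjusted p of 0.314. Foxm1, a transcription factor that activates late cell cycle genes, was at 67.5, 72.6, 63.3 and 56.9 CPM with vehicle, 55.6, 61.8, 63.5 and 66.6 CPM at 10 µM and 56.6, 56.1, 44.2 and 58.3 CPM at 50 µM. It stood at -0.27 (SE 0.10, adjusted p = 0.101), and without vehicle replicate 4 it passed (adjusted p = 0.0225). Cdc25c, the phosphatase that activates CDK1, had a log2 fold change of -0.32 (adjusted p = 0.106).

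Of the spindle checkpoint genes only Bub1 fell, at 50 µM and not at 10 µM. Bub1, a checkpoint kinase at kinetochores, was at 90.6, 100, 101 and 90.7 CPM with vehicle, 86.6, 91.6, 104 and 98.9 CPM at 10 µM and 76.3, 72.0, 75.0 and 82.3 CPM at 50 µM. Vehicle and 10 µM overlapped and all 50 µM libraries lay below both. The log2 fold change was -0.31 against vehicle (SE 0.07, adjusted p = 0.0125, and 0.0547 without vehicle replicate 3) and -0.32 against 10 µM (SE 0.07, adjusted p = 0.00829). Mad2l1, whose product MAD2 inhibits CDC20, was at 70.4, 70.4, 72.0 and 81.6 CPM with vehicle, 76.8, 74.0, 68.0 and 69.7 CPM at 10 µM and 64.5, 61.8, 80.7 and 68.2 CPM at 50 µM. Its groups overlapped and its log2 fold change at 50 µM was -0.09 (95% interval -0.29 to 0.11). The kinase gene Ttk stood at -0.25 (adjusted p = 0.0959, and 0.0189 without vehicle replicate 4), and Bub1b at -0.11.

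In the role of mitotic kinases and the chromosomal passenger complex, Plk1 fell and the other 5 genes, also fitted below 0, did not pass. Plk1, which acts from centrosome maturation to cytokinesis, was at 105, 97.0, 104 and 117 CPM with vehicle, 98.2, 96.8, 93.5 and 97.9 CPM at 10 µM and 86.7, 75.6, 64.6 and 83.8 CPM at 50 µM. The 50 µM libraries were the most spread and still lay below all of the others. It fell by 0.44 against vehicle (SE 0.10, 95% interval -0.65 to -0.23, adjusted p = 0.00924) and by 0.31 against 10 µM (SE 0.08, adjusted p = 0.0174, and 0.0555 without 50 µM replicate 2), and shares 156 exon bases with Gm44985 on the opposite strand, which had 40 counts. Aurkb, the kinase of the passenger complex, was at 84.4, 90.3, 87.5 and 94.1 CPM with vehicle, 86.4, 87.3, 85.0 and 86.0 CPM at 10 µM and 81.6, 70.1, 83.7 and 77.4 CPM at 50 µM. All 50 µM libraries were below the rest, by a small margin (log2 fold change -0.18, SE 0.08, adjusted p = 0.142). Birc5, encoding survivin, which anchors that complex, was at 88.4, 81.0, 84.8 and 91.9 CPM with vehicle, 83.8, 83.3, 71.5 and 77.2 CPM at 10 µM and 73.9, 71.1, 80.6 and 64.1 CPM at 50 µM. The 50 µM libraries were below those of vehicle, and the log2 fold change of -0.25 (SE 0.08) had an adjusted p of 0.0659, or 0.0466 and 0.0335 without vehicle replicate 2 and without 50 µM replicate 3. Aurka, the spindle pole kinase, was at 88.0, 84.3, 91.0 and 102 CPM with vehicle, 89.6, 89.0, 80.5 and 80.2 CPM at 10 µM and 84.8, 82.1, 83.5 and 83.3 CPM at 50 µM. Its 50 µM range reached into that of vehicle, and its log2 fold change of -0.12 (95% interval -0.29 to 0.04) was nearest to 0 in this role. Cdca8, or borealin, stood at -0.15 without overlap between 50 µM and vehicle (adjusted p = 0.159), and Incenp at -0.16 with overlap (adjusted p = 0.262, and 0.0303 without vehicle replicate 4).

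At the kinetochore, Nuf2 and Ndc80, subunits of the complex that binds microtubules, fell at 50 µM by the same amount. Nuf2 was at 58.6, 58.4, 62.0 and 62.5 CPM with vehicle, 58.7, 53.4, 50.6 and 56.1 CPM at 10 µM and 45.5, 48.1, 54.0 and 46.6 CPM at 50 µM. Its 50 µM libraries lay below those of vehicle and overlapped with 10 µM (log2 fold change -0.31 against vehicle, SE 0.08, adjusted p = 0.0194). Ndc80 was at 46.5, 45.0, 42.8 and 41.3 CPM with vehicle, 36.9, 35.5, 44.3 and 38.7 CPM at 10 µM and 37.0, 34.5, 37.3 and 32.6 CPM at 50 µM. The same held for it (-0.31, SE 0.08, adjusted p = 0.0203). Without vehicle replicate 3, 50 µM replicate 2 or 50 µM replicate 4 both calls were lost (adjusted p between 0.0508 and 0.0666), and that of Ndc80 also without vehicle replicate 1 (0.0609). Spc25, of the same complex, stood at -0.14 (adjusted p = 0.293). Cenpa, the histone that marks centromeres, was at 85.5, 87.3, 91.7 and 90.5 CPM with vehicle, 92.0, 85.6, 79.9 and 79.9 CPM at 10 µM and 76.2, 73.7, 86.7 and 83.3 CPM at 50 µM. A 50 µM library reached into the vehicle range and the log2 fold change was -0.14 (SE 0.07, adjusted p = 0.237).

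Cenpe, a kinetochore motor, and Cenpf, a large kinetochore and nuclear matrix protein, varied far more within groups. Cenpf was at 95.2, 104, 67.0 and 23.4 CPM with vehicle, 41.5, 46.2, 78.0 and 80.3 CPM at 10 µM and 68.2, 67.9, 55.6 and 69.1 CPM at 50 µM. Cenpe was at 104, 136, 86.9 and 41.5 CPM with vehicle, 55.2, 67.8, 98.2 and 114 CPM at 10 µM and 92.7, 98.5, 79.3 and 96.5 CPM at 50 µM. In both, vehicle replicate 4 was the lowest of the 12 libraries, vehicle replicates 1 and 2 were high, and the 10 µM group split into 2 low and 2 high libraries. The log2 fold changes at 50 µM were -0.14 (SE 0.31, 95% interval -0.80 to 0.52) for Cenpf and 0.00 (SE 0.24, 95% interval -0.52 to 0.52) for Cenpe. With 1 library left out the values ran from -0.44 to 0.08 for Cenpf and from -0.24 to 0.24 for Cenpe, and in 1 of the 8 fits Cenpf passed, at -0.44 without vehicle replicate 4 (adjusted p = 0.018).

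Among spindle motors and spindle proteins Tpx2 fell. Tpx2, which activates Aurora A and nucleates microtubules near chromosomes, was at 196, 189, 191 and 175 CPM with vehicle, 168, 161, 184 and 174 CPM at 10 µM and 153, 142, 139 and 154 CPM at 50 µM. The 3 groups were stepped, with 50 µM below all others and 10 µM overlapping with vehicle. It fell by 0.34 against vehicle (SE 0.07, adjusted p = 0.00573) and by 0.22 against 10 µM (SE 0.06, adjusted p = 0.0311), and the latter call was lost in 4 of the 8 fits that left out a library, without 10 µM replicate 3, 10 µM replicate 4, 50 µM replicate 2 or 50 µM replicate 3 (adjusted p between 0.0596 and 0.112). Kif15, a motor that backs up KIF11 in holding the spindle poles apart, was at 83.9, 95.0, 74.6 and 58.5 CPM with vehicle, 48.9, 55.8, 77.5 and 83.4 CPM at 10 µM and 59.2, 62.9, 61.2 and 62.9 CPM at 50 µM. Its 50 µM libraries were close together in the lower part of a wide vehicle range (log2 fold change -0.33, SE 0.12, adjusted p = 0.0765, and 0.00132 without vehicle replicate 4). Hmmr, a spindle pole protein, was at 103, 109, 100 and 77.1 CPM with vehicle, 72.1, 78.0, 97.9 and 99.4 CPM at 10 µM and 86.2, 85.9, 95.4 and 101 CPM at 50 µM. Its groups overlapped (log2 fold change -0.07, 95% interval -0.29 to 0.15). The other 5 did not pass, at -0.24 for Kif11, -0.21 for both Kif4 and Kif2c, -0.18 for Ckap2l and -0.16 for Nusap1, and Kif11, Kif4 and Ckap2l passed without vehicle replicate 4 (adjusted p of 0.00259, 0.0102 and 0.0328).

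Cytokinesis was the role with the most calls at 50 µM in the main fit, 4 of 6, all lower, against 6.5% of all genes. The roles were not compared by a test. Kif20a, the motor that carries the passenger complex to the central spindle, was at 85.4, 88.4, 83.6 and 77.8 CPM with vehicle, 74.9, 80.6, 85.8 and 87.4 CPM at 10 µM and 63.0, 65.7, 56.8 and 60.1 CPM at 50 µM. At 10 µM it overlapped with vehicle, and at 50 µM every library lay below all of the others. It fell by 0.44 against vehicle (SE 0.07, 95% interval -0.60 to -0.28, adjusted p = 0.00176) and by 0.42 against 10 µM (SE 0.07, adjusted p = 0.00111). Its exons share 1271 bases with those of Cdc23 on the opposite strand, which had 14044 counts over the 12 libraries. Racgap1, a GTPase-activating subunit of centralspindlin, was at 140, 130, 128 and 135 CPM with vehicle, 128, 116, 127 and 125 CPM at 10 µM and 113, 111, 106 and 111 CPM at 50 µM. The 50 µM libraries were below all others (log2 fold change -0.27, SE 0.07, adjusted p = 0.0171, and 0.0525 without vehicle replicate 1). Ect2, the exchange factor that switches on RhoA at the cleavage site, was at 76.0, 66.4, 74.5 and 75.5 CPM with vehicle, 62.8, 66.1, 61.8 and 68.8 CPM at 10 µM and 63.2, 61.3, 59.7 and 60.9 CPM at 50 µM. At 50 µM it lay below vehicle and overlapped with 10 µM (log2 fold change -0.25, SE 0.07, adjusted p = 0.039). Prc1, which bundles the central spindle microtubules, was at 107, 107, 99.7 and 89.3 CPM with vehicle, 79.8, 88.8, 89.4 and 98.4 CPM at 10 µM and 86.1, 84.1, 83.3 and 84.0 CPM at 50 µM. Its 50 µM libraries were nearly equal and below those of vehicle (log2 fold change -0.25, SE 0.07, adjusted p = 0.0418), and 911 of its exon bases are shared with Rccd1 on the opposite strand, which had 783 counts. The call of Ect2 held only without vehicle replicate 2 or vehicle replicate 4, and that of Prc1 only without vehicle replicate 4, among the 8 fits that left out a library (up to 0.113 and 0.115 in the others). Kif23, the motor of centralspindlin, was at 97.6, 103, 86.3 and 70.1 CPM with vehicle, 71.9, 75.1, 86.2 and 89.8 CPM at 10 µM and 81.4, 87.4, 74.8 and 83.5 CPM at 50 µM. Its groups overlapped (log2 fold change -0.12, 95% interval -0.34 to 0.11). Anln, an actin-binding scaffold of the cleavage furrow, stood at -0.15 without overlap between 50 µM and the other groups (adjusted p = 0.185).

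Of the 4 anaphase promotion genes Cdc20 fell and Pttg1 rose at 50 µM, and Espl1 and Ube2c did not pass. Cdc20 was at 93.2, 86.9, 88.5 and 89.7 CPM with vehicle, 80.4, 81.5, 80.0 and 80.7 CPM at 10 µM and 72.9, 61.9, 66.3 and 60.0 CPM at 50 µM. The 3 groups did not overlap with one another, and the 10 µM libraries lay between the others. The log2 fold change was -0.15 at 10 µM (SE 0.06, unadjusted p = 0.0194, adjusted p = 0.413), -0.45 at 50 µM (SE 0.08, 95% interval -0.62 to -0.28, adjusted p = 0.00196) and -0.30 between the doses (adjusted p = 0.00891). Cdc20 shares 53 exon bases with Elovl1 on the opposite strand, which had 37994 counts over the 12 libraries. Pttg1, the inhibitor that holds separase until anaphase, was at 10.8, 11.0, 9.45 and 12.8 CPM with vehicle, 12.8, 11.4, 10.7 and 13.0 CPM at 10 µM and 13.3, 15.3, 15.6 and 13.6 CPM at 50 µM. All 50 µM libraries lay above all others, at a level lower than that of most of the list. It rose by 0.40 against vehicle (SE 0.12, 95% interval 0.15 to 0.65, adjusted p = 0.0361), and the call held in 2 of the 8 fits that left out a library, those without vehicle replicate 4 and without 50 µM replicate 1 (adjusted p between 0.0592 and 0.115 in the others). Espl1, separase itself, stood at -0.35 without overlap between 50 µM and vehicle (SE 0.12, adjusted p = 0.082, and 0.0261 without vehicle replicate 4). Ube2c, the ubiquitin-conjugating enzyme of the anaphase-promoting complex, stood at -0.14 (adjusted p = 0.237).

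**Figure D3:**
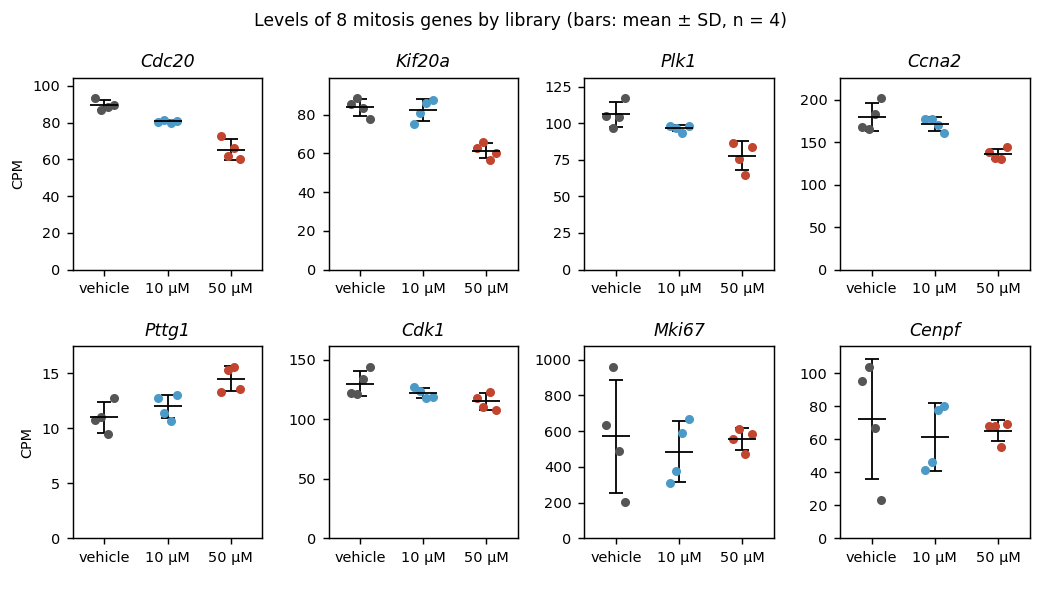
CPM of 8 mitosis genes in each library (points) with the mean and SD of the 4 libraries of a group (bars), each vertical axis starting at 0. Cdc20, Kif20a, Plk1 and Ccna2 at 50 µM lie below all other libraries, Pttg1 lies above them, Cdk1 overlaps, and Mki67 and Cenpf vary most with vehicle.

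Long genes of the list varied most between replicates. The SD of log2 CPM within groups, pooled over the 3 groups, was 0.64 for Mki67 and for Cenpf and 0.51 for Cenpe, against a median of 0.10 over the 48 genes and 0.12 over the 8450 tested genes at least as abundant as the lowest of them. Of those 8450 genes, 13 varied more than Mki67, 12 more than Cenpf and 29 more than Cenpe. Their coding lengths are 9531, 8991 and 7413 bases, the longest of the list. The fourth longest, Espl1 with 6354 bases, had an SD of 0.21, followed by Top2a with 4584 bases and an SD of 0.13. Kif15, Kif4 and Smc4 came next in spread (0.28, 0.27 and 0.25). Across the 48 genes the spread had a Spearman correlation of 0.49 with coding length, 0.36 with exon length and -0.17 with transcript GC content, as a description over genes measured in the same libraries. Over all abundant genes these were 0.05, -0.04 and 0.05.

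Coding length and spread were tied among long genes more than over all genes. Of the 159 abundant genes with a coding length over 7000 bases, 42.8% had an SD over 0.3, against 13.8% of 232 genes between 5000 and 7000 bases, 4.34% of 829 genes between 3000 and 5000 bases and 1.4% of 6987 shorter ones. Of the mitosis genes, the 3 over 7000 bases and none of the other 45 exceeded that value. Within the vehicle group, replicate 4 was the lowest library for 26 of the 48 genes, with a median coding length of 2760 bases, and the highest for 14, with a median of 1006 bases. Vehicle replicate 2 was the highest library for 23, with a median of 3156 bases. Thus Cdk1, Ccnb1, Ccnb2, Ccna2 and Plk1 were highest in the library in which Mki67, Cenpf, Cenpe, Smc4 and Kif15 were lowest.

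**Figure D4:**
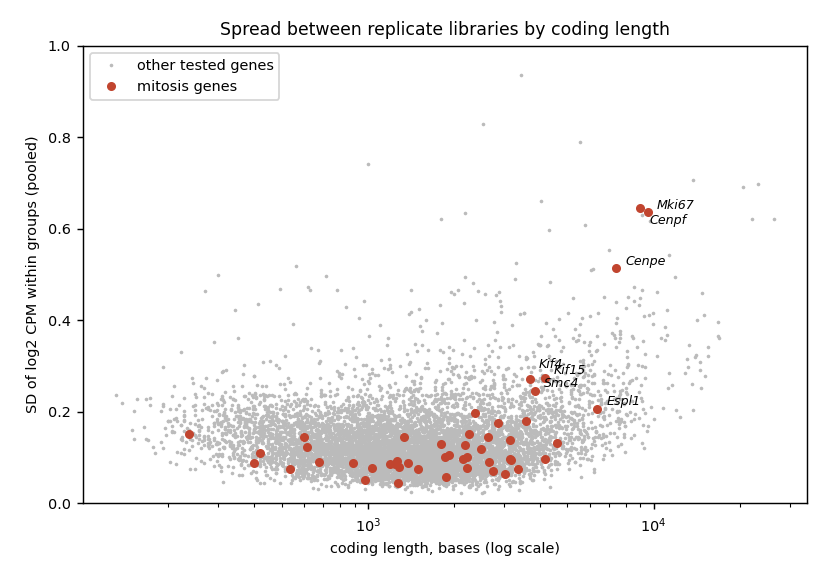
SD of log2 CPM within groups (vertical, pooled over 3 groups of 4 libraries) against coding length (horizontal, log scale) for 8207 tested genes (grey) and the 48 mitosis genes (red). Mki67, Cenpf and Cenpe stand at an SD of 0.51 to 0.64 and most other mitosis genes near 0.10.

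Transcripts outside the list that varied in the same way within the vehicle group were looked up after their values were seen. Malat1, a noncoding RNA retained in the nucleus, was at 112, 221, 78.9 and 35.3 CPM with vehicle, 49.5, 69.8, 81.6 and 125 CPM at 10 µM and 119, 173, 154 and 133 CPM at 50 µM. Macf1, a cytoskeletal linker with a coding length of 22065 bases, was at 239, 340, 167 and 69.3 CPM with vehicle, 138, 167, 208 and 267 CPM at 10 µM and 249, 273, 214 and 239 CPM at 50 µM. In both, vehicle replicate 2 was the highest vehicle library and replicate 4 the lowest, as for Mki67. For each library, deviations of log2 CPM from the gene means over the 12 libraries were fitted on log2 exon length, over 14882 tested genes. The slope, relative to the 12 libraries together, was 0.039, 0.041, 0.011 and -0.038 in the vehicle libraries. It was -0.048, -0.012, 0.020 and 0.036 at 10 µM and 0.003, 0.005, -0.066 and 0.010 at 50 µM. It was thus lowest in vehicle replicate 4, 10 µM replicate 1 and 50 µM replicate 3, the libraries in which Mki67 was lowest in each group. Its part in the spread was not tested.

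By exon length, 9 of the 24 shorter genes and 7 of the 24 longer ones were called at 50 µM against vehicle, with medians of -0.20 and -0.23. Between the doses the 7 calls of the main fit were all among the 24 shorter genes. Of the longer genes, Anln, Ncapd2 and Smc2 passed without 10 µM replicate 1, and Anln, Ncapd2, Ncapg and Racgap1 with DESeq2. The difference between shorter and longer genes was not tested. Of the 9 genes with over 8000 exon bases 1 was called, Prc1, and their median log2 fold change was -0.15. Of the other 39, 15 were called and the median was -0.24. In a fit that left out the library with the lowest length slope from each group, added after the data were seen, 28 of the 48 passed at 50 µM, 27 of them lower, while the count over all genes went from 2010 to 2419, and Cenpf, Top2a, Foxm1, Kif15, Kif4 and Smc2 were among the mitosis genes gained. Ect2 was lost. At 10 µM none passed in that fit. With every library kept, 22 of the 48 passed at 50 µM with an offset for exon length and 20 with the length slope as a covariate (2442 and 2896 of all genes). Without vehicle replicate 4 alone 27 of the 48 passed (2689 of all genes), and without vehicle replicate 3 alone 9 did (1248 of all genes). Without 50 µM replicate 2 or 50 µM replicate 4 it was 10 (1313 and 1379 of all genes).

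A further list of 75 mitosis genes, such as other kinetochore, condensin II and cytokinesis genes, was read from the same fits. None of the 75 passed at 10 µM (median log2 fold change -0.11). At 50 µM 11 of the 75 (14.7%) fell and 1 rose (median -0.17), against 6.5% and 7.0% of all genes. Between the doses 6 of the 75 (8.0%) were lower, close to the 7.85% of all genes, and 1 was higher (median -0.06). The condensin II subunit gene Ncapg2 fell from a mean of 111 CPM with vehicle to 79.8 CPM at 50 µM (log2 fold change -0.47, SE 0.06, adjusted p = 0.000335). The cohesin acetyltransferase gene Esco2 stood at -0.48 (SE 0.10, adjusted p = 0.0067) and the cyclin F gene Ccnf at -0.32 (adjusted p = 0.00872). Psrc1, encoding a spindle protein and known as a p53 target, rose from 10.1 to 21.4 CPM (log2 fold change 1.09, SE 0.16, adjusted p = 0.000585), and against 10 µM by 1.23. In 61 of the 75 with a RefSeq window, 62.3% held TTTGAA or TTCGAA, 65.6% CCAAT and 44.3% both.

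Of 45 genes of DNA replication, which act earlier in the cell cycle, 19 fell at 50 µM (42.2%, against 6.5% of all genes), with a median of -0.27, and the difference from the mitosis genes was not tested. None of the 45 passed at 10 µM (median -0.08), and 19 were lower at 50 µM than at 10 µM (42.2%, against 7.85% of all genes, median -0.20). Among them were Rrm2 of ribonucleotide reductase (-0.44, SE 0.07, adjusted p = 0.000785), the helicase subunit gene Mcm5 (-0.47, SE 0.07, adjusted p = 0.00101) and the cyclin E2 gene Ccne2 (-0.67, SE 0.11, adjusted p = 0.00108).

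Of 28 tested cell cycle inhibitors and regulators of the E2F, RB and MuvB families, which control these genes, 5 fell and 3 rose at 50 µM, where 6.5% and 7.0% of all genes did, and none passed at 10 µM. Cdkn1a, encoding the CDK inhibitor p21, rose from a mean of 356 to 479 CPM (log2 fold change 0.44, SE 0.07, adjusted p = 0.0018), and Cdkn2b, encoding p15, from 2.78 to 5.74 CPM (1.05, SE 0.20, adjusted p = 0.00383). E2f2 (-0.59, SE 0.07, adjusted p = 0.000151) and E2f7 (-0.60, SE 0.11, adjusted p = 0.00269) fell. Tfdp1, the partner of E2F factors, stood at -0.33 (adjusted p = 0.00613), and Mybl2, which joins MuvB at late cell cycle promoters, at -0.41 (adjusted p = 0.00627). Between the doses 4 of the 28 were lower and 3 higher at 50 µM, where 7.85% and 7.52% of all genes were.

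Of the marker lists of cells in the culture, that of early granulocyte progenitors alone fell throughout at 50 µM, and the others rose, were mixed or held no call. Over all genes 0.0806% were lower and 0.329% higher at 10 µM, and 6.5% lower and 7.0% higher at 50 µM. All 6 markers of early granulocyte progenitors (Mpo, Elane, Prtn3, Ctsg, Ms4a3 and Cebpe) fell at 50 µM, with a median of -0.99, and their summed level was 1727 to 2457 CPM with vehicle, 1629 to 1809 CPM at 10 µM and 857 to 1197 CPM at 50 µM. Of 7 markers of haematopoietic progenitors, Kit and Myb fell and Cd34 and Gata2 rose, with summed levels of 177 to 194, 147 to 181 and 204 to 233 CPM. Of 6 tested B lineage markers 5 rose, and the summed level of all 8 was 19.3 to 27.7, 24.2 to 34.4 and 38.1 to 60.9 CPM. Of 9 macrophage markers 3 rose at 10 µM, and 2 rose and 2 fell at 50 µM, with summed levels of 835 to 1013, 1139 to 1273 and 1047 to 1092 CPM. Myeloid identity markers, 3 higher and 1 lower at 50 µM, summed to 18913 to 24924, 20237 to 22135 and 17632 to 23522 CPM. None of the markers of mast cells and basophils (6 tested), T and NK cells (4), stroma (2), endothelium (3) or the erythroid lineage (2) passed against vehicle at either dose, and the 8 erythroid markers summed to at most 2.46 CPM in any library. Whether the mix of cells bore on the levels of the mitosis genes was not tested.

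**Figure D5:**
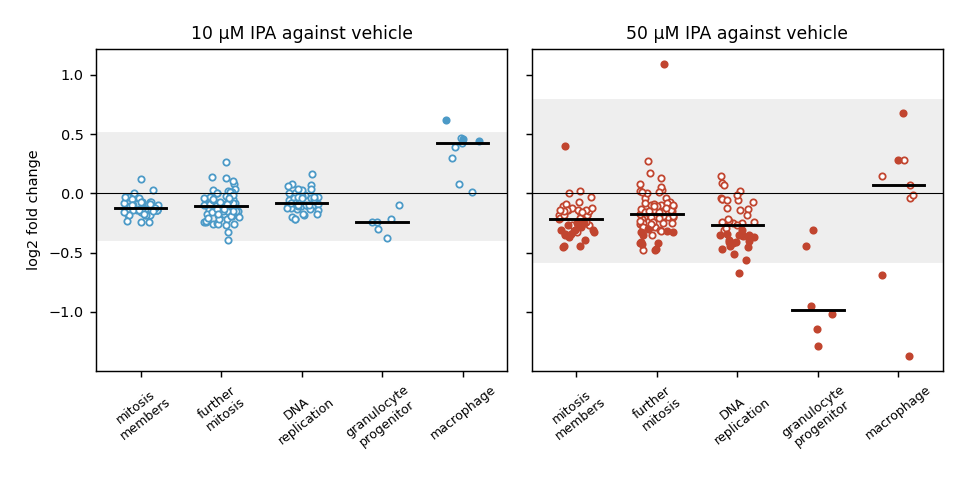
Log2 fold change of single genes (points) at 10 µM (left) and 50 µM IPA (right) against vehicle in 5 gene lists, with the list's median as a black bar, filled points for genes past edgeR's test, and grey for the 5th to 95th percentile of all genes tested. At 50 µM the medians are -0.22 for the 48 mitosis genes, -0.17 for further mitosis genes, -0.27 for DNA replication genes and -0.99 for granulocyte progenitor markers.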

How the data were processed

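RNA was sequenced from bone marrow cultures, 4 libraries in each of 3 groups (vehicle, 10 µM IPA and 50 µM IPA), after a stranded mRNA preparation. After trimming with Atropos, the authors mapped the reads to mm10 using HISAT2 2.2.1 and counted them per Ensembl gene (release GRCm38.92) with featureCounts 2.0.1, and the deposited values are raw counts without normalisation or a filter. The strand setting of the counting is not given in the sources used here, so overlapping genes on opposite strands may share reads. Groups and replicate numbers came from the labels. As the titles of 10 µM replicates 2 and 3 carry the same name and differ only in a bracketed code, they were told apart by library name.

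The filter kept 14894 of 54532 genes, those that exceeded 0.5 CPM in 2 or more of the 12 libraries. Each pair of groups was tested on its 8 libraries with edgeR 4.0.16 (TMM, glmQLFit and glmQLFTest, R 4.3.3) with Benjamini-Hochberg adjustment and a threshold of 0.05. The scripts were tested on simulated data. Alternatives were limma-voom (limma 3.58.1), DESeq2 1.42.0 or only its size factors, omission of the filter or a minimum of 10 counts in all libraries, a fit to all 12 libraries, and a replicate block. Others were a lowess offset (span 0.3) for how each library's deviations from the gene means depended on exon length. The slope of this dependence was also entered as a covariate, and single libraries were left out. Exon lengths, coding lengths and positions came from GENCODE M21 (GRCm38), promoter windows from RefSeq (GRCm38.p6), and RPKM were computed from exon length. Totals of 20451312 to 28038612 counts per library set the depth.

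The 48 genes, the other lists and the tests were chosen with earlier results of these data known. All 48 were accounted for. Given with the value in every library were 12 well-known members, the member of highest and of lowest fold change at 50 µM in each role, every member past the threshold, and the 3 longest and 3 shortest by exon length. Of the other lists, genes past the threshold with the smallest p were named, at most 6 per comparison.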

Additional observations from a re-analysis of the deposited data

Results flagged for a closer look

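In 7 of 147 groups of 4 libraries, 1 library stood apart from the other 3 by Dixon's test, and chance flags about 1 in 20 groups. In 3 of them it was vehicle replicate 4, with 162 CPM for Smc2 (213 to 220 in the others), 99.3 CPM for Ccnb2 (84.7 to 85.5) and 81.6 CPM for Mad2l1 (70.4 to 72.0). It was 50 µM replicate 3 for Foxm1, with 44.2 CPM (56.1 to 58.3 in the others), and for Cenpf, with 55.6 CPM (67.9 to 69.1). It was vehicle replicate 2 for Nusap1, with 121 CPM against 115 in each of the others, and for Ect2, with 66.4 CPM (74.5 to 76.0).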

How the results depend on the processing

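The median of the 48 mitosis genes kept its direction under every alternative run, between -0.13 and -0.10 at 10 µM, -0.25 and -0.19 at 50 µM and -0.12 and -0.08 between the doses. At 10 µM none of the 48 passed under any of them. At 50 µM 16 passed, 9 to 27 when 1 library was left out and 19 with DESeq2. The length offset gave 22, the slope covariate 20, and omission of the library of lowest length slope in both groups 28. This last alternative was added after seeing the data. Between the doses 7 passed, 4 to 10 when 1 library was left out (4 without 50 µM replicate 2), 12 with DESeq2 and 11 with the length offset. With the length slope as a covariate 16 passed, 2 of these 16 higher at 50 µM (Mki67 and Cenpe). Without the filter 9 passed, 1 of them higher at 50 µM (Mki67). Of the further mitosis genes none passed at 10 µM, but 2 did with DESeq2, 1 with all 12 libraries and 2 with the slope covariate. At 50 µM 12 of them passed, 6 to 20 with 1 library left out, 19 with all 12 libraries, 21 with the length offset, 21 with the slope covariate and 21 without the lowest slopes. Between the doses 7 passed, 3 to 9 with 1 library left out, 11 with the offset and 13 with the covariate. Over all genes 61 passed at 10 µM, 4 to 122 with 1 library left out, 250 with DESeq2, 150 without a filter, 118 with all 12 libraries, 102 with the offset, 374 with the covariate and 147 without the lowest slopes. At 50 µM 2010 passed, 1248 to 2689 with 1 library left out, and between the doses 2289, 1604 to 2269 with 1 left out and 3476 with the covariate. The causes were not tested.

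Correlations of the deviations of same-numbered libraries lay between -0.242 and 0.142, against -0.255 to 0.272 for libraries of different number. As libraries of different number reached the larger values, these correlations cannot exclude that same-numbered libraries shared a source of marrow. With a replicate block 13 of the 48 passed at 50 µM, without Ccnb1, Ect2, Prc1 and Pttg1 and with Espl1, and 3 of all genes passed at 10 µM. Under the block Cenpf stood at 0.02 and Mki67 at 0.15 at 50 µM, against -0.14 and -0.03 without it.

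Other turns of direction were in values that did not pass the test. With the slope covariate Mki67 stood at 0.15, Cenpe at 0.14 and Cenpf at 0.14 at 10 µM, and Mki67 at 0.49, Cenpf at 0.37 and Kif23 at 0.01 at 50 µM. With limma-voom Mki67 stood at 0.17 and Cenpf at 0.05 at 50 µM, and with the offset Mki67 at 0.02. Without the lowest slopes Smc4 stood at -0.12 at 50 µM and Aurka at 0.01 between the doses. With 1 library left out the ranges at 10 µM were -0.52 to 0.14 for Mki67, -0.38 to 0.11 for Cenpe, -0.53 to -0.01 for Cenpf, -0.06 to 0.01 for Kif20a, -0.05 to 0.04 for Bub1 and -0.06 to 0.02 for Mad2l1. At 50 µM they were -0.31 to 0.33 for Mki67, -0.44 to 0.08 for Cenpf, -0.24 to 0.24 for Cenpe and -0.11 to 0.10 for Smc4. Between the doses they were -0.05 to 0.01 for Aurka, -0.02 to 0.32 for Cenpe, -0.06 to 0.24 for Cenpf, -0.22 to 0.02 for Kif15 and -0.03 to 0.08 for Kif23. Of 1728 values of the 32 named genes under alternatives, 1607 kept their direction and side of the threshold, 46 lost the call, 42 gained it and 33 turned. With 4 libraries per group, Mki67, Cenpf and Cenpe passed in no main comparison, and were called only under some of the alternatives. Changes within their wide spread may have gone undetected.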
